A study of Mus musculus with 33 samples.

Results

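The genes described are Il2ra, Il2rb, Il2rg, Il7r, Il4ra, Il15ra and Il21r, which encode the chains of the interleukin (IL)-2 receptor and of the receptors that share its common gamma chain. They were chosen by name, with the knowledge that Il2ra moved after ruxolitinib. The values of ruxolitinib-treated mice against their vehicle, which chose them, are therefore given as a description. No p is printed for them, and where one of them met the threshold over all genes this is stated as part of that description and supports nothing. All 7 were among the 750 endogenous probes of the NanoString immune panel, and all 7 were among the 655 that were above background in at least 2 of the 33 mice, background being 2 SD above the average of the negative probes of a lane. Il2rb, Il4ra and Il7r were above background in all 33 mice, Il2rg in 31, Il2ra and Il21r in 28, and Il15ra in 21.

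Each mouse was a female C57BL/6 mouse, 6 to 8 weeks of age, and total RNA of its whole bone marrow (BM) was counted in 1 lane. The study asked how short courses of venetoclax, a BCL2 inhibitor, and ruxolitinib, a JAK1/2 inhibitor, alter the immune genes of the marrow in mice that had received no irradiation and no transplant. Venetoclax was given by oral gavage once daily and ruxolitinib 2 times daily, both for 2 days. At each of days 1, 3 and 7 after treatment there were 3 venetoclax-treated mice, 2 mice given the venetoclax vehicle (phosal, polyethylene glycol and ethanol), 3 ruxolitinib-treated mice and 2 mice given the ruxolitinib vehicle (DMSO and polyethylene glycol in water). A further 3 mice were untreated, and 1 of them was counted in each day's run. The 11 mice of a day were counted in 1 run, so that day and run cannot be told apart. Every mouse is a separate animal, and the p-values measure the spread between mice.

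The endogenous probes of a lane summed to between 18056 and 466096 counts, with a median of 158944. The lanes of venetoclax-treated mouse 1 of day 1 and ruxolitinib-treated mouse 1 of day 3 held fewer than 30000. Values are normalised counts, that is, the count of a probe divided by a lane factor taken from 11 housekeeping probes. The factor ran from 0.18 to 3.41, so that a normalised count rests on more counted molecules in a deep lane than in a shallow one. Probes differ in how well they capture their transcript, so levels were compared between mice and not between genes. The labelled tissue was checked on marker probes. Probes for granulocytes and their precursors (S100a8, Itgam, Csf3r, Mpo, Elane and Camp) were above background in all 33 mice, and all 5 probes for B cell precursors were above background in at least 1 mouse of each group. Whole BM is a mixture, so that fewer cells of a type and less RNA per cell cannot be told apart in any value given here.

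The receptors of this family are built from shared parts. The common gamma chain (Il2rg, CD132) pairs with Il7r for IL-7, with Il4ra for IL-4 and with Il21r for IL-21, and it joins Il2rb (CD122) to form the signalling pair for IL-2 and IL-15. Il2ra (CD25) and Il15ra are private chains that raise the affinity for IL-2 or present IL-15. JAK3 binds the gamma chain and JAK1 the partner chain, and both pass the signal to STAT transcription factors. In mouse BM the IL-7 receptor carries the survival signal of early B cell precursors, CD25 is found on late B cell precursors as well as on regulatory and activated T cells, and CD122 is found on NK cells and memory T cells.

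The sequence before the transcription start is shown for Il2ra and Il7r, because these were the members called in a ruxolitinib comparison, that is, with an adjusted p under 0.05 over all 655 genes, in the contrast that chose the members. The windows come from RefSeq, which held 6 of the 7 members on build GRCm38.p6, and were cut where the annotated gene begins. Il2ra lies on the plus strand of chromosome 2 (11642792 to 11693194) and Il7r on the minus strand of chromosome 15 (9506159 to 9529941). Capitals mark matches to a motif.
Il2ra, chr2:11642542-11642791, plus strand: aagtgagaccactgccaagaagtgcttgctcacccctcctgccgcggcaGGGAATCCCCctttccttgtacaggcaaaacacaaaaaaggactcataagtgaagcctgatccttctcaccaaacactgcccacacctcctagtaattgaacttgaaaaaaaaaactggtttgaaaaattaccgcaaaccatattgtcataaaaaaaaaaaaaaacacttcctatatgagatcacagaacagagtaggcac
Il7r, chr15:9529942-9530126, minus strand: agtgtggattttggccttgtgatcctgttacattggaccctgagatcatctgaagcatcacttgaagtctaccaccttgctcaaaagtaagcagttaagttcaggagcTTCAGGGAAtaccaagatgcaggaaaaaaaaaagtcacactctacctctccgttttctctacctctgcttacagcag
In the Il2ra window the capitals match a kappaB motif (GGGAANNCCC), which lay 201 to 192 bases before the start. On both strands this motif was found in 1.53% of 32851 windows of 250 bases. In the Il7r window the capitals match a STAT motif (TTCNNNGAA), which lay 142 to 134 bases before the start, which in RefSeq's window lies inside the annotated gene. This motif was found in 7.02% of the same windows. No window of the 6 members matched the STAT6 spacing (TTCNNNNGAA) or the interferon response motif (GAAANNGAAA), which were found in 5.85% and 2.98% of windows. After cutting, 185 bases were kept for Il7r, 129 for Il15ra and 73 for Il21r, against 250 in the windows behind the shares. The motifs do not overlap one another in these sequences, and binding was not measured.

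The vehicles were compared first with untreated mice, because every drug value is read against them. None of the 7 genes passed the threshold of 0.05 (edgeR quasi-likelihood test, adjusted p from 0.585 to 0.999), where 0% of the 655 genes did so, and 0 of the 7 had an unadjusted p under 0.05. Over all genes 75 had an unadjusted p under 0.05, and DESeq2 called 0 and limma 1. Fold changes of the members ran from -0.45 on the log2 scale for Il21r to 0.29 for Il2ra, against a median of -0.15 over all genes. The Il2ra value was 1.21 without untreated mouse 2 and 1.74 under limma after background subtraction (adjusted p = 0.0638), the other untreated mice being at background for this gene.

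Among mice without a drug, Il2rb lay lower in the day 7 run, a comparison described without a test. Its normalised counts were 126 to 195 in the 5 mice of the day 1 run, 126 to 232 in the 5 of the day 3 run and 66.4 to 84.3 in the 5 of the day 7 run. The 3 untreated mice, 1 from each run, stood at 195, 189 and 67.4. All 5 mice of the day 7 run lay below the 10 others. Il2rb was the 1 member of 7 without overlap here, where 16% of the 655 genes had none. Il7r had vehicle-treated mice at 53.4 to 71.9 in the day 7 run, below the 97.1 to 181 of the vehicle-treated mice of the earlier runs, but the untreated mouse of the day 7 run stood at 108.

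Il2ra encodes CD25, the alpha chain of the high-affinity IL-2 receptor. In ruxolitinib-treated mice at day 7 its normalised counts were 5.74, 6.46 and 12.4, and in the mice given the vehicle they were 24.1 and 28.7. The drug-treated mice all lay below both vehicle-treated mice. The log2 fold change was -1.94 ± 0.36 (SE), with group means of 8.21 ± 3.67 (SD, n = 3) and 26.4 ± 3.23 (SD, n = 2). The raw counts behind the drug-treated mice were 14, 22 and 4, and the last of these was not above the background of its lane. The 3 untreated mice stood at 9.60, 24.7 and 10.1, with raw counts of 3, 33 and 3, so that the ruxolitinib-treated mice overlapped them. In the untreated mice the pair of low values was not above background.

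**Figure D1:**
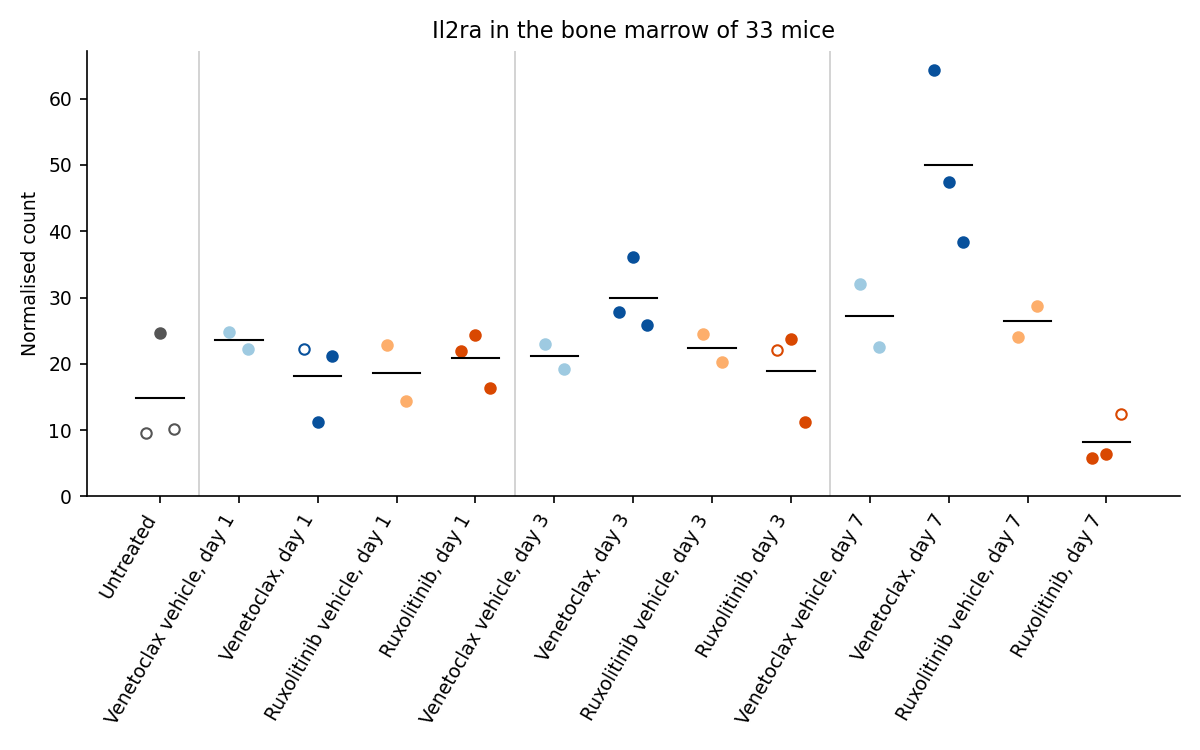
Normalised Il2ra count of each of the 33 mice, by group. Each point is 1 mouse, open points were not above the background of their lane, black lines are group means, and grey lines separate the days. The ruxolitinib-treated mice at day 7 (5.74 to 12.4) have the lowest mean and the venetoclax-treated mice at day 7 (38.4 to 64.3) the highest.

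On the earlier days the ruxolitinib-treated mice overlapped their vehicle. At day 1 they stood at 21.97, 24.3 and 16.4 against 22.9 and 14.4. At day 3 they stood at 22.01, 23.7 and 11.2 against 24.5 and 20.3. The log2 fold changes were 0.25 ± 0.32 and -0.18 ± 0.36. Ruxolitinib-treated mouse 3 of day 3, at 11.2, lay below both vehicle-treated mice of its day, and the 22.01 of mouse 1 rests on a raw count of 4 that was not above background.

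Il2ra was the 1 member called at day 7 of ruxolitinib, where 0.153% of the 655 genes were called. It was also the only gene of the 655 called there. The call was lost without vehicle-treated mouse 1, without ruxolitinib-treated mouse 1 or without ruxolitinib-treated mouse 2, although the log2 fold change stayed between -2.11 and -1.81 over the 5 mice left out in turn. The call was lost under both limma alternatives as well. This contrast chose the gene, so the call is given as a description.

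After venetoclax, a contrast that the choice did not use, Il2ra values lay above the vehicle at days 3 and 7 and not at day 1. At day 1 the venetoclax-treated mice had 22.2, 11.2 and 21.2, with the vehicle-treated mice at 24.8 and 22.3. The first of these values rests on a raw count of 4, not above the background of a shallow lane, so that the order of 22.2 and 22.3 is within counting error. At day 3 they had 27.9, 36.0 and 25.9, all above 23.1 and 19.2. At day 7 they had 64.3, 47.4 and 38.4, all above 32.0 and 22.5, which made the mean of 50.0 ± 13.1 (SD, n = 3) the highest of the 13 groups.

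None of these Il2ra differences passed the threshold (edgeR). The log2 fold changes were -0.64 ± 0.40 at day 1 (adjusted p = 0.607), or -0.12 without venetoclax-treated mouse 2, 0.52 ± 0.33 at day 3 (adjusted p = 0.601) and 0.69 ± 0.32 at day 7 (adjusted p = 0.886). The day 7 value ran from 0.48 to 1.08 with 1 mouse left out. A contrast of the day 7 with the day 1 difference, added after these values were seen, gave 1.33 ± 0.51 (edgeR, adjusted p = 0.481), with 0 of 655 genes passing. Over the 13 group means of Il2ra, 11 of 12 neighbouring pairs lay within 1 SD of each other, and 1 pair, venetoclax at day 7 over venetoclax at day 3, did not overlap.

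Levels of markers of B cell precursors, mature B cells and regulatory T cells are given beside these values. The 5 probes for B cell precursors (Igll1, Rag1, Pax5, Blnk and Cd79b) summed to 370.3 to 408 in ruxolitinib-treated mice at day 7 and to 537 to 568 in their vehicle. They summed to 166 to 277 at day 3 of ruxolitinib, when Il2ra overlapped its vehicle, against 494 to 529.5. The 5 probes for mature B cells (Ms4a1, Cd22, Cr2, Fcer2a and Tnfrsf13c) summed to 66.8 to 105.6 at day 7 of ruxolitinib against 161 to 166, and to 93.4 to 115.6 at day 3 against 126 to 164. Within the list, Rag1, a recombinase gene of B cell precursors, was at 16.4, 24.96 and 9.32 at day 7 against 39.1 and 47.1, while Igll1, the surrogate light chain gene, was at 184, 139 and 168 against 129 and 133. For regulatory T cells, the 5 probes summed to 22.9 to 49.7 against 27.2 to 28.7, and Foxp3, their defining gene, was above background in 1 of 33 mice. At day 7 of venetoclax, where Il2ra was highest, the B cell precursor sum was 455 to 749 against 536 to 626. Igll1 was called lower there, at 52.1, 64.02 and 40.9 against 167 and 112 (log2 fold change -1.54 ± 0.31, edgeR, adjusted p = 0.0142), a call lost under both limma alternatives, under total count scaling, and without vehicle-treated mouse 1 or venetoclax-treated mouse 1 or 3. Rag1 stood at 86.9, 45.1 and 58.4 against 48.4 and 36.5, so that these groups overlapped. The regulatory T cell sum was 26.5 to 30.8 against 26.6 to 33.7. The part of these cells in the Il2ra values was not tested.

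The genes whose pattern over the 33 mice was most like that of Il2ra, after the mean of each run was subtracted and among the 354 genes whose normalised count averaged 20 or more, were Irf4 (Pearson r = 0.67, Spearman rho = 0.64), Rag1 (0.65 and 0.61), Mapk8 (0.60 and 0.50), Cd79b (0.58 and 0.57) and Slamf7 (0.57 and 0.54). These are descriptions over mice that share lane depth and treatment. Irf4 encodes a transcription factor of lymphocytes and Cd79b a signalling chain of the B cell receptor. At day 7 of ruxolitinib the log2 fold change of Irf4 was -1.27 ± 0.36 and that of Rag1 was -1.10 ± 0.36.

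**Figure D2:**
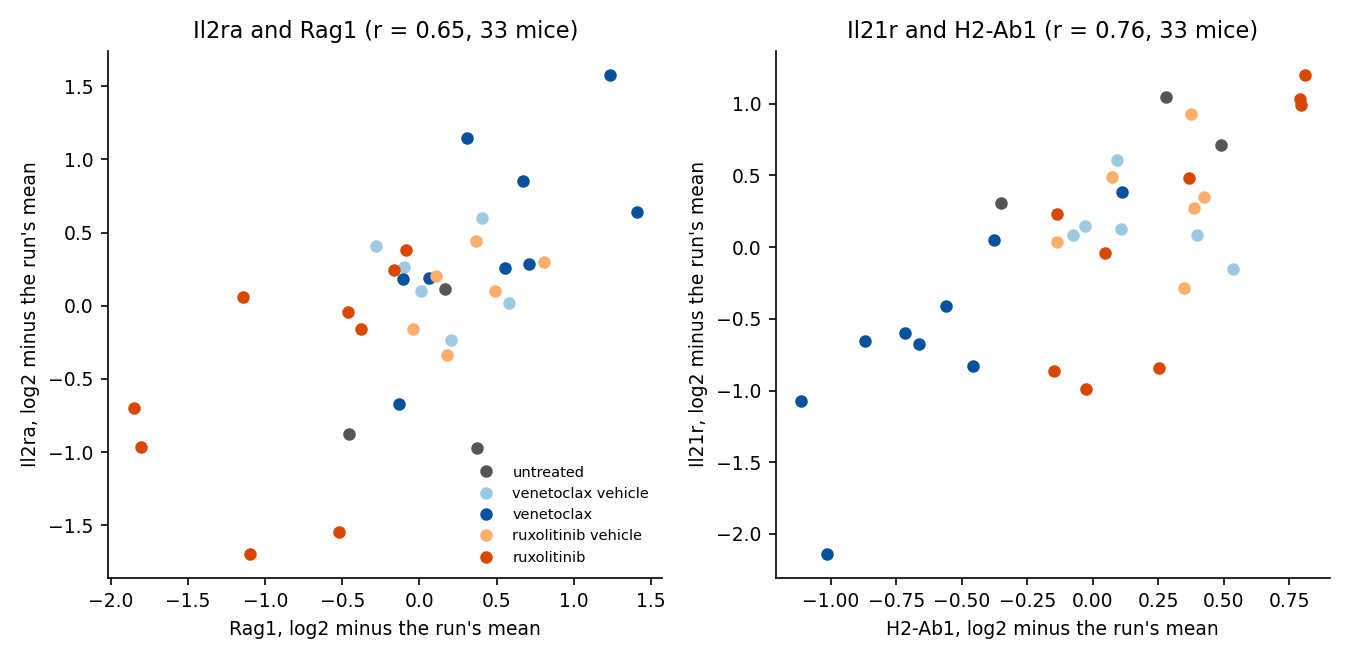
Il2ra against Rag1 (left) and Il21r against H2-Ab1 (right) in the 33 mice, as log2 normalised count minus the mean of the mouse's run, coloured by treatment. The 2 pairs have r = 0.65 and r = 0.76, and venetoclax-treated mice lie mostly at the lower left of the right panel.

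Il2rb encodes the beta chain that IL-2 and IL-15 share. At day 1 of ruxolitinib its normalised counts were 94.8, 73.0 and 86.4 against 165 and 169 with the vehicle, and no drug-treated mouse reached the vehicle-treated ones. At day 3 they were 88.1, 75.6 and 129 against 190 and 126. The highest of these 3 mice lay above the lower vehicle-treated mouse. At day 7 they were 79.5, 60.5 and 52.8 against 82.4 and 73.8, in the run where all mice without a drug were low.

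The log2 fold changes of Il2rb after ruxolitinib were -0.98 ± 0.28, -0.69 ± 0.31 and -0.25 ± 0.31 for days 1, 3 and 7, and -0.64 ± 0.17 for their mean. With 1 mouse left out the day 3 value ran from -0.99 to -0.37 and the day 7 value from -0.44 to -0.15. The 8 NK cell probes, a cell type that carries CD122, summed to 67.8 to 79.3 in ruxolitinib-treated mice at day 1 and to 87.0 to 104 in their vehicle. At day 3 the sums overlapped, at 79.3 to 99.1 against 77.1 to 115.2, and at day 7 too, at 91.0 to 186 against 86.1 to 111. The 8 T cell probes summed to 71.5 to 79.9 at day 1 against 60.4 to 68.8, and overlapped at day 3, at 52.1 to 137.6 against 69.8 to 111, and at day 7, at 61.7 to 112 against 83.3 to 110.7. The part of these cells in the Il2rb values was not tested.

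**Figure D3:**
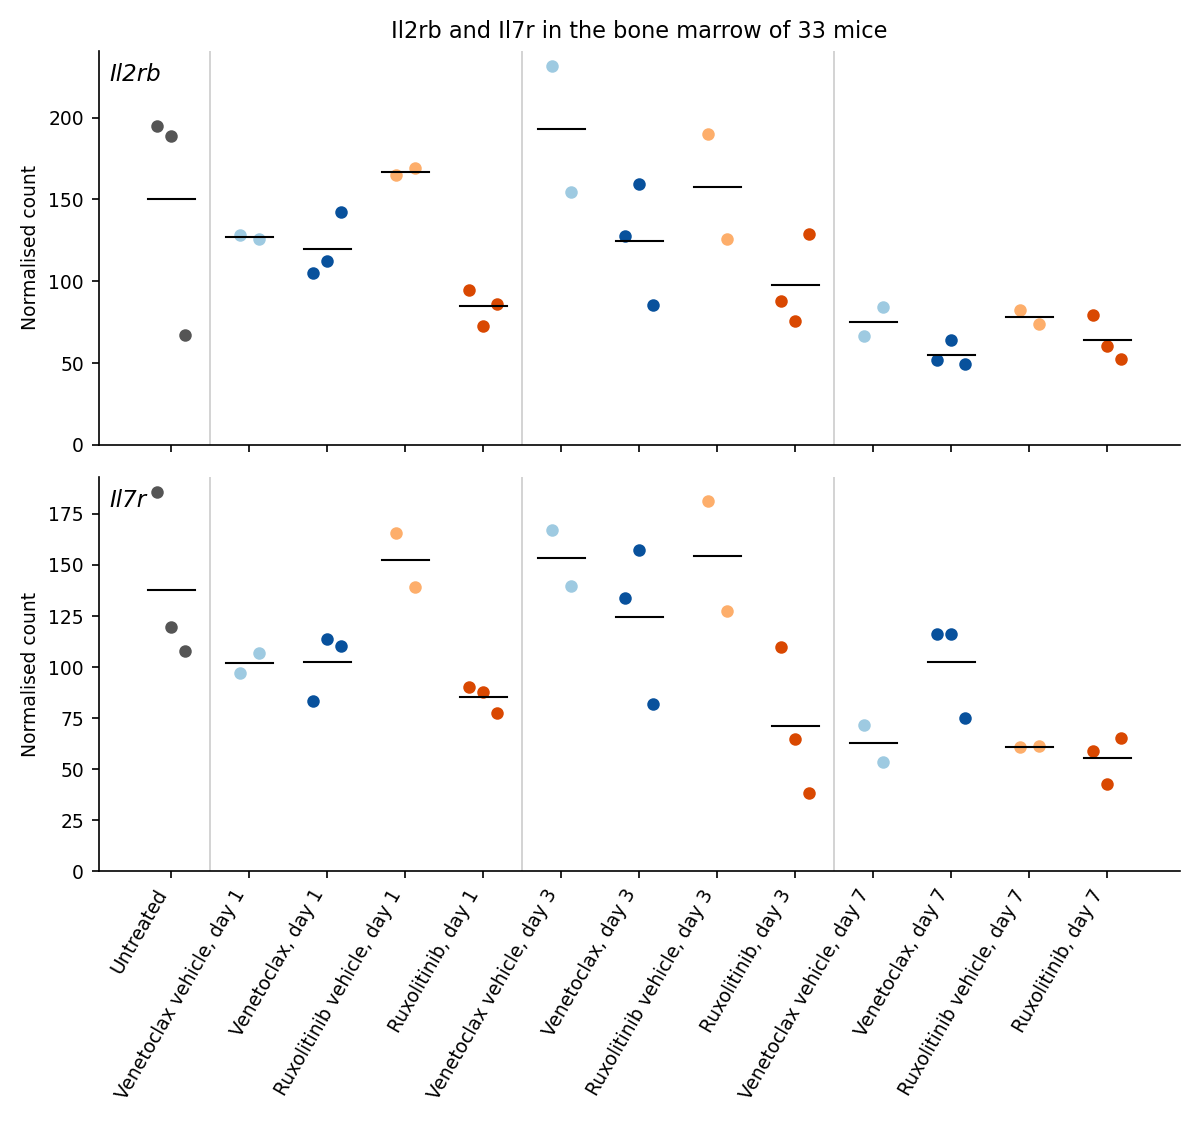
Normalised counts of Il2rb (top) and Il7r (bottom) of each of the 33 mice, by group. Each point is 1 mouse, black lines are group means and grey lines separate the days. For Il2rb, all mice of the day 7 run lie at or below 84.3, and for both genes the ruxolitinib-treated mice at day 1 lie below both vehicle-treated mice.

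Venetoclax-treated mice had Il2rb values of 105, 112 and 142 at day 1 against 128 and 126. The day 3 mice had 128, 160 and 85.7 against 232 and 155. At day 7 they had 52.1, 64.0 and 49.3 against 66.4 and 84.3. The groups overlapped at days 1 and 3, and the day 7 mice all lay below their vehicle, by a log2 fold change of -0.44 ± 0.34 (edgeR, adjusted p = 0.999). The 64.0 rests on a raw count of 27, so that its place below 66.4 is within counting error. At day 3 the log2 fold change was -0.63 ± 0.29 (edgeR, adjusted p = 0.410), or -0.32 without vehicle-treated mouse 1 and -0.91 without vehicle-treated mouse 2, and for the mean of the 3 days it was -0.38 ± 0.18 (edgeR, adjusted p = 0.479). After venetoclax the T cell sums were 43.5 to 53.6 at day 3 against 80.1 to 105 and overlapped on the other days, and the NK cell sums overlapped on all 3 days, at 86.5 to 113 against 66.9 to 96.7 on day 3. The genes most like Il2rb were Anp32b (r = 0.73, rho = 0.67), Tap2 (0.68 and 0.61), a peptide transporter of antigen presentation, and Dpp4 (0.68 and 0.63).

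Il7r encodes the IL-7 receptor alpha chain. Its normalised counts were 90.4, 87.7 and 77.7 at day 1 of ruxolitinib against 166 and 139 in the vehicle. On day 3 the values were 110, 64.9 and 38.4 against 181 and 127, so that all ruxolitinib-treated mice lay below their vehicle on both days. The 110 rests on a raw count of 20 in a shallow lane, so that its place below 127 is within counting error. At day 7 the values were 59.0, 42.9 and 65.2 against 60.7 and 61.5, and the groups overlapped.

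The log2 fold changes of Il7r were -0.83 ± 0.27, -1.29 ± 0.31 and -0.19 ± 0.31, and -0.77 ± 0.17 for the mean of the 3 days. For that mean Il7r was the 1 member called, where 1.22% of all genes were called. The choice of the members used this contrast, so the call is a description. The call was lost without ruxolitinib vehicle mouse 1 of day 3, without ruxolitinib vehicle mouse 1 of day 7, and under both limma alternatives. For the same mean, 3 of the 5 probes of B cell precursors, Igll1, Rag1 and Pax5, were called lower (edgeR). These calls were lost too under both limma alternatives, where 0 genes were called, and without either of those vehicle mice 2 genes were called in all. On days 1, 3 and 7 the log2 fold changes of Igll1 were -0.98, -1.93 and 0.32. At day 3 alone it was called lower (edgeR), a call lost when only the groups compared were fitted. The sum of the 5 probes at day 3 was 166 to 277 against 494 to 529.5, whereas at day 1, with Il7r low in all 3 mice, it was 405 to 475 against 429 to 516. The part of these cells in the Il7r values was not tested.

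After venetoclax Il7r stood at 83.2, 114 and 110 at day 1 against 97.1 and 107. At day 3 it stood at 134, 158 and 82.1 against 167 and 139, and the groups overlapped on both days. At day 7 it stood at 116, 116 and 75.3 against 71.9 and 53.4. The day 7 mice all lay above their vehicle, although 75.3 and 71.9 differ within counting error. Their log2 fold change was 0.60 ± 0.31 (edgeR, adjusted p = 0.999). They overlapped the untreated mice, which stood at 186, 120 and 108, the last of these in the day 7 run. The genes most like Il7r were Pou2af1 (r = 0.69, rho = 0.77), a coactivator of B cells, Nlrc5 (0.68 and 0.69), an activator of MHC class I genes, and Pax5 (0.67 and 0.62), a transcription factor that commits cells to the B lineage.

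Il21r encodes the IL-21 receptor, which acts in B, T and NK cells. It was the member with the lowest adjusted p at day 1 of venetoclax and for the mean of the 3 days, whereas Il2rb had the lowest at day 3 and Il4ra at day 7. At day 1 the venetoclax-treated mice had 5.55, 8.10 and 2.12, all below the vehicle-treated mice at 14.0 and 13.5. At day 3 they had 8.71, 12.4 and 7.20, all below 12.7 and 18.7, although 12.4 and 12.7 rest on raw counts of 12 and 11 and differ within counting error. At day 7 they had 20.8, 9.48 and 8.43 against 17.6 and 14.0, and the groups overlapped through 1 mouse.

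The log2 fold changes of Il21r were -1.10 ± 0.54 (edgeR, adjusted p = 0.471), -0.84 ± 0.42 (edgeR, adjusted p = 0.463) and -0.60 ± 0.43 (edgeR, adjusted p = 0.999). With 1 mouse left out the day 1 value ran from -2.16 (without venetoclax-treated mouse 2) to -0.83, and the day 3 value from -1.06 to -0.46. The day 7 value ran from -0.96 (without venetoclax-treated mouse 1) to -0.08 (without venetoclax-treated mouse 3). For the mean of the 3 days it was -0.84 ± 0.27 (edgeR, adjusted p = 0.0957), which did not pass. It passed without venetoclax-treated mouse 1 of day 7 (-0.97, edgeR, adjusted p = 0.0371) and with the vehicles of both drugs pooled (-0.89, edgeR, adjusted p = 0.0166). Over its 13 alternatives the adjusted p ran from 0.0166 to 0.310. In 2 of the 3 mice of day 1 and in 1 of day 7 the count was not above background.

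**Figure D4:**
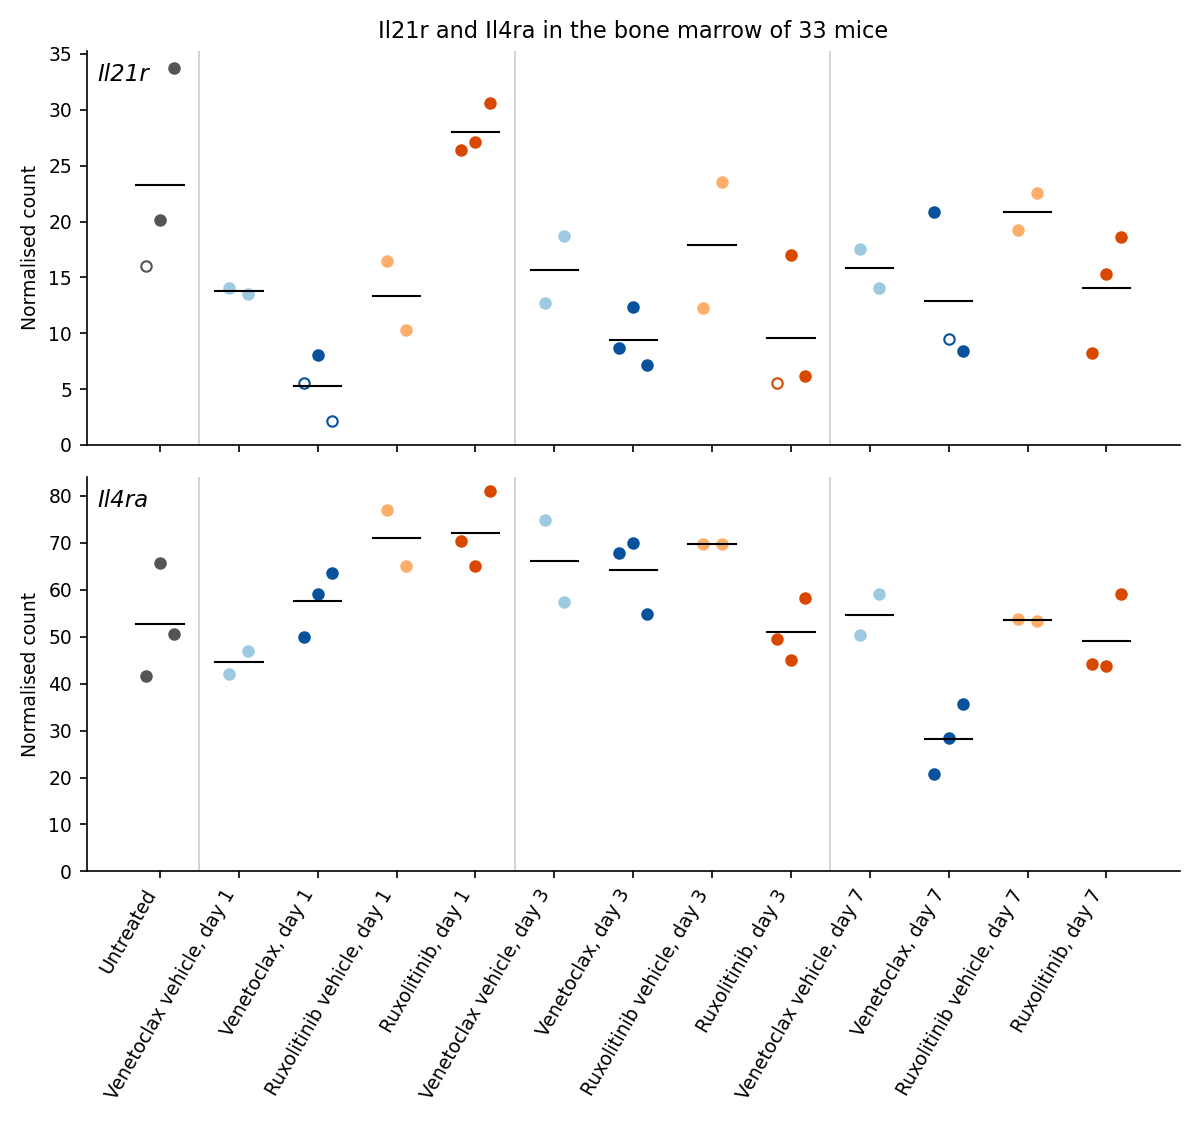
Normalised counts of Il21r (top) and Il4ra (bottom) of each of the 33 mice, by group. Each point is 1 mouse, open points were not above the background of their lane, black lines are group means and grey lines separate the days. Il21r was lowest in venetoclax-treated mice at day 1 (2.12 to 8.10) and Il4ra in venetoclax-treated mice at day 7 (20.8 to 35.6).

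After ruxolitinib Il21r stood at 26.4, 27.1 and 30.6 at day 1 against 16.5 and 10.3, and all 3 mice lay above their vehicle. At day 3 it stood at 5.50, 17.0 and 6.20 against 12.2 and 23.5. At day 7 it stood at 8.20, 15.3 and 18.6, all below 19.2 and 22.5, although the 18.6 rests on a raw count of 6 and differs from 19.2 within counting error. The log2 fold changes were 1.17 ± 0.35, -0.54 ± 0.42 and -0.67 ± 0.37, so that the mean of the 3 days, -0.01 ± 0.22, averages values of both signs. The day 3 value was -1.62 without ruxolitinib-treated mouse 2 and 0.07 without vehicle-treated mouse 2. The 3 untreated mice stood at 15.999, 20.2 and 33.7.

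The genes most like Il21r over the 33 mice were H2-Ab1 (r = 0.76, rho = 0.71), Cd74 (0.75 and 0.70) and H2-Aa (0.74 and 0.66), which encode MHC class II chains and their invariant chain and are expressed by B cells and other antigen-presenting cells. For the mean of the 3 venetoclax days, H2-Ab1 fell by 0.78 ± 0.15 on the log2 scale (edgeR, adjusted p = 0.00163) and H2-Aa by 0.94 ± 0.22 (edgeR, adjusted p = 0.0122). Cd74 did not pass, with -0.68 ± 0.20 (edgeR, adjusted p = 0.0556). These genes were picked for a pattern like that of Il21r over mice that include the venetoclax-treated ones. Their values are therefore a description and add nothing to those of Il21r. Probes for mature B cells (5 genes) summed to 75.4 to 122 in venetoclax-treated mice at day 1 against 131 to 161, and to 223 to 232 in ruxolitinib-treated mice at day 1 against 147 to 152. They also lay apart at day 3 of venetoclax, at 82.1 to 122.7 against 124.7 to 196. There 3 of the 5 probes had log2 fold changes above 0, and 2, Cd22 (-1.17) and Cr2 (-1.53), were below 0. At days 3 and 7 of ruxolitinib the sums lay apart too, as given beside Il2ra. They overlapped at day 7 of venetoclax, at 105.6 to 202 against 148 to 213. The part of these cells in the Il21r values was not tested.

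Il4ra encodes the chain that binds IL-4 and, with Il13ra1, IL-13. Venetoclax-treated mice at day 7 had 20.8, 28.5 and 35.6, all below the vehicle-treated mice at 50.4 and 59.0 and the lowest mean of the 13 groups. The log2 fold change was -0.82 ± 0.25 (edgeR, adjusted p = 0.730). At day 7 the 5 probes for monocytes and macrophages summed to 322 to 362 against 379 to 395, and the 3 for basophils and mast cells to 48.6 to 67.8 against 70.3 to 81.5, and none of these 8 probes was called. The other cell types overlapped their vehicle. Among them were mature B cells (105.6 to 202 against 148 to 213) and B cell precursors (455 to 749 against 536 to 626). Granulocytes and their precursors did so too (51260 to 67957 against 57499 to 58634). The part of these cells in the Il4ra values was not tested. At day 1 the values were 49.9, 59.2 and 63.6 against 42.1 and 47.0, with a log2 fold change of 0.40 ± 0.25 (edgeR, adjusted p = 0.607). The 49.9 rests on a raw count of 9 in a shallow lane, so that its place above 47.0 is within counting error. At day 3 the mice had 67.9, 70.0 and 54.7 against 74.9 and 57.5.

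A contrast of the day 7 with the day 1 difference for Il4ra, also added after the values were seen, gave -1.22 ± 0.36 (edgeR, adjusted p = 0.263). The 3 untreated mice stood at 41.6, 65.7 and 50.6, above all venetoclax-treated mice of day 7. After ruxolitinib Il4ra stood at 70.3, 65.0 and 81.0 at day 1 against 76.9 and 65.0. At day 3 it stood at 49.5, 45.1 and 58.3 against 69.8 and 69.7, and at day 7 at 44.3, 43.8 and 59.0 against 53.7 and 53.3. The day 3 mice all lay below their vehicle, with a log2 fold change of -0.47 ± 0.24. The 49.5 rests on a raw count of 9 in a shallow lane, so that its place below 69.7 is within counting error. The genes most like Il4ra were H2-M3 (r = 0.55, rho = 0.58), Cd55 (0.51 and 0.55) and Il13ra1 (0.48 and 0.47), its partner chain for IL-13.

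Il2rg, the common gamma chain, had the smallest ratio of highest to lowest group mean among the 7 genes. Its means ran from 18.6 ± 2.67 (SD, n = 2) in the venetoclax vehicle at day 1 to 33.8 ± 3.73 (SD, n = 3) with ruxolitinib at day 1, a ratio of 1.82, and all 12 neighbouring pairs lay within 1 SD. Ruxolitinib-treated mice at day 1 had 35.8, 36.2 and 29.5, all above 18.3 and 26.4. Venetoclax-treated mice at day 7 had 22.6, 23.7 and 16.2, all below 25.004 and 30.9, with a log2 fold change of -0.48 ± 0.37 (edgeR, adjusted p = 0.999), or -0.20 without venetoclax-treated mouse 3. The 23.7 rests on a raw count of 10 and differs from 25.004 within counting error. On the other venetoclax days the log2 fold change was 0.14 ± 0.41 and 0.14 ± 0.34, and the groups overlapped. The genes most like Il2rg were Cd48 (r = 0.68, rho = 0.68), a surface protein of blood cells, Icam2 (0.65 and 0.54) and H2-Dma (0.64 and 0.60).

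Il15ra presents IL-15 to cells that carry Il2rb and Il2rg. Its raw counts were 1 to 15, and in 12 of the 33 mice they were not above background, so that small differences were not detectable at this depth. Ruxolitinib-treated mice at day 7 had normalised counts of 2.87, 1.47 and 3.11 against 4.58 and 14.3, with a log2 fold change of -1.66 ± 0.62. The raw counts of the drug-treated mice were 7, 5 and 1, the last pair not above background. The value was -2.73 without vehicle-treated mouse 1 and -1.09 without vehicle-treated mouse 2. After venetoclax its log2 fold changes were -0.11 ± 0.65, 0.17 ± 0.65 and 0.35 ± 0.63 (edgeR, adjusted p from 0.951 to 0.999), and the day 7 value ran from 0.14 (without venetoclax-treated mouse 2) to 0.98 (without vehicle-treated mouse 1). The genes most like Il15ra were Cd69 (r = 0.49, rho = 0.51), Trp53 (0.42 and 0.30) and Rps6 (0.41 and 0.40).

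**Figure D5:**
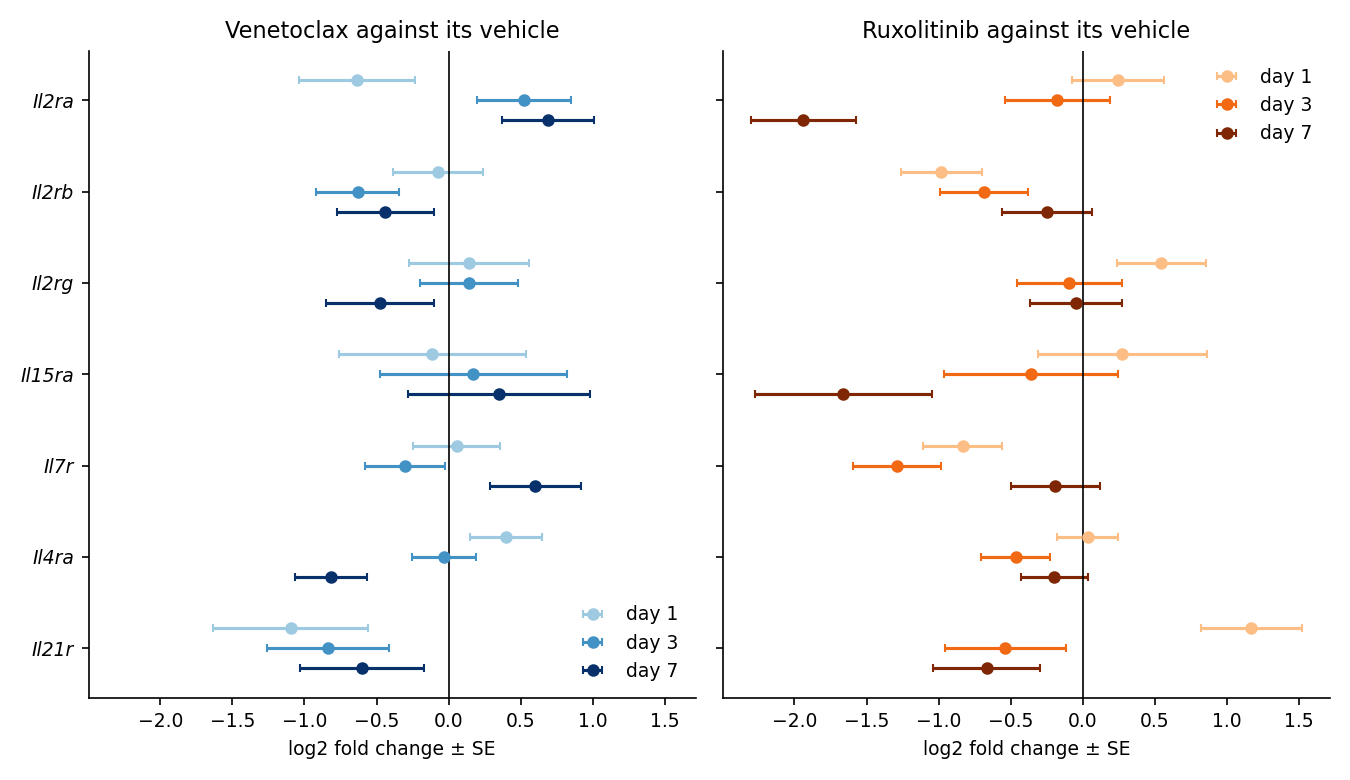
Log2 fold change of the 7 genes on days 1, 3 and 7, for venetoclax (left) and ruxolitinib (right), each against its own vehicle (3 mice against 2). Points are edgeR estimates and bars are 1 SE. After venetoclax all 7 lie between -1.10 and 0.69, and after ruxolitinib the values of Il2ra and Il15ra at day 7 are the lowest.

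Over the 7 genes, none passed the threshold at day 1 of venetoclax (adjusted p from 0.471 to 0.987), where 0.153% of the 655 genes did, at day 3 (0.410 to 0.995), where 0% did, at day 7 (0.730 to 0.999), where 0.153% did, or for the mean of the days (0.0957 to 0.971), where 2.9% did (edgeR). DESeq2 and limma called 0 of the 7 in each of these 4 comparisons. Of all 655 genes DESeq2 called 4, 1, 1 and 12 in them, and limma called 0, 0, 0 and 10. At an unadjusted p under 0.05 (edgeR) there were 1, 1, 2 and 2 of the 7, and 68, 70, 31 and 60 of all 655 genes. Venetoclax-treated mice lay without overlap on 1 side of their vehicle for 3 of 7 members at day 1, 2 at day 3 and 5 at day 7. Over all genes the shares were 27.5%, 26.1% and 17.3%. Several of the members' orders are within counting error, among them those of Il2rb, Il2rg and Il7r at day 7. Such cases were not taken out of either count. The median log2 fold change of the members was -0.07, -0.03 and -0.44 on the 3 days, against -0.02, 0.06 and -0.01 over all genes.

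After ruxolitinib 0 of 7 members were called at day 1, where 2.75% of all genes were, 0 at day 3, where 0.153% were, and 1 at day 7. By non-overlap there were 4 of 7 at day 1, 2 at day 3 and 3 at day 7, where 44%, 15.6% and 17.7% of all genes had no overlap. Several of these orders are within counting error, among them those of Il7r and Il4ra at day 3. The median log2 fold change of the members was 0.25 at day 1 against 0.13 over all genes, -0.47 at day 3 against 0.02 and -0.25 at day 7 against 0.02. At day 1, 5 of 7 members had values above 0, where 40.9% of all genes were below 0. Of these 5, Il4ra was -0.03 under TMM, DESeq2 and the replicate block, Il15ra reached -0.31 with untreated mice as control, and with 1 mouse left out Il2ra reached -0.13, Il4ra -0.09 and Il15ra -0.23. All 7 fitted values were below 0 at days 3 and 7, where 48.4% and 48.1% of all genes were, but several signs rest on single mice. With 1 mouse left out at day 3, Il2ra reached 0.09, Il2rg 0.77, Il15ra 0.27 and Il21r 0.07, and under other settings Il2ra reached 0.07 and Il2rg and Il15ra 0.15. At day 7 Il7r kept its sign in 4 of 5 fits with 1 mouse left out, its highest value being 0.00. Il2rg at day 7 has no settled sign. Its fitted value was -0.05, whereas its mean normalised count was 27.7 with ruxolitinib and 22.4 with the vehicle, where the 2 mice stood at 34.5 and 10.2. It kept its sign in 8 of 13 alternatives, flipped under TMM, DESeq2 and 20-probe housekeeping scaling and both limma alternatives (up to 0.84), and reached 1.38 without vehicle-treated mouse 1. The choice of the members used this contrast, so these counts are a description.

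Other genes of the pathway, and receptor chains of neighbouring cytokines, were taken from a list of 34, of which 26 were on the panel and 22 were tested. The ligands were at or near background. Il4 was above background in 0 of 33 mice, Il2 and Il9 in 1, Il7 and Il21 in 2, Il13 in 4, and Il15 in 18. All 4 kinases of the list, Jak1, Jak2, Jak3 and Tyk2, were above background in all 33 mice. After ruxolitinib, which inhibits JAK1 and JAK2, the log2 fold changes of Jak1 were 0.17, 0.02 and 0.22 and those of Jak2 were 0.20, 0.28 and 0.02 on days 1, 3 and 7.

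No gene of this list passed the threshold in either direction on any single day of either drug, for the mean of the ruxolitinib days, or between vehicle-treated and untreated mice (edgeR, 22 genes tested). For the mean of the venetoclax days 1 of the 22 passed, and it was lower, where 2.9% of all genes were called. This was Il18r1, a chain of the IL-18 receptor, which belongs to the IL-1 receptor family and shares no gamma chain. No tested kinase or ligand of the list was called. The receptor chains of the list that were tested, Il13ra1, Il18r1 and Il12rb1, hold no gamma chain receptor, so that class was not tested here. Il18r1 had a log2 fold change of -0.69 ± 0.19 (edgeR, adjusted p = 0.0346). Its normalised counts were 5.55, 14.3 and 17.0 at day 1 against 30.2 and 37.4, and all 3 mice lay below their vehicle, the lowest with a raw count of 1 that was not above background. The groups overlapped at day 3, with 23.5, 18.5 and 30.96 against 33.4 and 27.99, and at day 7, with 17.4, 28.5 and 24.98 against 35.9 and 28.1. For the same mean 7 of 8 T cell probes had values below 0, and 2 were called lower, Cd3d (-0.94 ± 0.23, edgeR, adjusted p = 0.0153) and Cd8a (-1.95 ± 0.47, edgeR, adjusted p = 0.0139). Cd8a was above background in only 16 of the 33 mice, and its highest raw count was 17. The T cell probes summed to 37.996 to 105 in venetoclax-treated mice at day 1 against 63.7 to 70.1, and at day 3 they lay apart, as given beside Il2rb. At day 7 they summed to 40.3 to 90.1 against 83.6 to 135. The part of these cells in the Il18r1 values was not tested. The 5 transcription factors and the 6 feedback and target genes tested, among them Stat5b, Socs1 and Bcl2, gave no call in any comparison.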

How the data were processed

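The authors extracted total RNA from whole BM and deposited raw NanoString counts of 1 mouse lane per file, with 750 endogenous, 20 housekeeping, 8 negative and 6 positive probes. These deposited counts were used with no background subtraction. The 7 genes, the pathway list and the marker lists were chosen with earlier results of these data known. A gene was tested if it exceeded background, set in each lane at 2 SD above the average of its negative probes, in at least 2 lanes, which 655 did. The edgeR quasi-likelihood test (version 4.0.16, R 4.3.3) was fitted to 13 group means over all 33 lanes, with the geometric mean of the 11 housekeeping probes above background in every lane as library size, Benjamini-Hochberg adjustment over all 655 genes and a threshold of 0.05. It was tested on simulated data. Alternatives used DESeq2 (1.42.0), limma (3.58.1), other scalings, filters and controls, a replicate block, and each mouse left out. Likeness used log2(normalised count + 1). All 7 genes, the genes called in the pathway list and the 3 genes most like each member (5 for Il2ra) are named by rule. Other named genes belong to the marker lists, or are pathway genes named with no call to show the level of their class. 1 gene of the B cell precursor list is not reported here and was left out of its sums and counts. The headers call the day 3 run Day 2, but the mouse names in those headers give day 3 for all 11 mice, as the labels do, and day 3 was used.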

Additional observations from a re-analysis of the deposited data

Results flagged for a closer look

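Between the drugs on the same day, or between days of the same drug, there were 6 cases in which every drug-treated mouse of a group lay on one side of its vehicle while every mouse of another group lay on the other side. Il2ra differed in this way between venetoclax and ruxolitinib at day 7, by 2.63 on the log2 scale, and this difference was not tested because the ruxolitinib values chose the gene. Il21r differed between the drugs at day 1, by -2.26 (venetoclax minus ruxolitinib), and between days 1 and 7 of ruxolitinib, by 1.84 (day 1 minus day 7). The day 7 order of Il21r rests on a mouse with a raw count of 6. These Il21r differences were not tested either. Among venetoclax days, where the day 1 order of Il2ra rests on a mouse at background, Il2ra at day 1 minus day 3 was -1.16 (edgeR, adjusted p = 0.392 for the day 3 contrast) and at day 1 minus day 7 was -1.33 (edgeR, adjusted p = 0.481). Il4ra at day 1 minus day 7 was 1.22 (edgeR, adjusted p = 0.263), where the day 1 order rests on a mouse with a raw count of 9. With 3 mice against 2, between 15.6% and 44% of all genes had no overlap within a single comparison. No group had enough mice to look for single mice far from the rest.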

How the results depend on the processing

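Of 117 counts of members called under an alternative, 96 equalled the main count. The counts for ruxolitinib are a description, since that contrast chose the members. With untreated mice as control, 1 member was called at day 1 of venetoclax (Il21r), 3 at day 7 (Il2ra, Il2rb and Il4ra) and 1 for the mean of the days (Il21r), and 3 at day 7 of ruxolitinib and 2 for its mean. Over all 655 genes this control called 25, 66, 15, 87 and 12. Of the 3 untreated mice, 2 were counted in other runs than the day compared, so that the calls on single days mix run with drug. With both vehicles pooled the counts were 1 for the venetoclax mean and 1, 1 and 3 for days 1 and 3 and the mean of ruxolitinib (26, 30, 10 and 20 of all genes). Fitting only the groups compared gave 3 at day 1 and 2 for the mean of ruxolitinib (77 and 15 of all genes), and a mean count of at least 10 gave 1, 1 and 2 for days 1 and 3 and the mean (17, 2 and 12 of 437 genes). All 20 housekeeping probes gave 1 at day 1 of ruxolitinib (21 of all genes), and DESeq2 and leaving out 2 shallow lanes each gave 1 at day 3 (2 of all genes each). Under limma, with or without background subtraction, the 1 call of day 7 and the 1 call of the mean became 0. Leaving out 1 mouse at a time gave 0 to 1 for the venetoclax mean (8 to 19 of all genes). For ruxolitinib it gave 0 to 1 at day 3, 0 to 1 at day 7 and 0 to 2 for the mean (1 to 3, 0 to 1 and 2 to 11 of all genes). The count 1 at day 3 came without ruxolitinib vehicle mouse 2 or ruxolitinib-treated mouse 1 (Il7r both times), and the count 2 for the mean without ruxolitinib vehicle mouse 2 or ruxolitinib-treated mouse 3 of day 3 or ruxolitinib-treated mouse 1 of day 7. The cause was not tested.

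Of 450 log2 fold changes of members after venetoclax or vehicle under an alternative, 29 had the other sign, and none of them passed the threshold under edgeR, DESeq2 or limma. At day 1 of venetoclax Il2rg was -0.06 without shallow lanes, -0.03 with both vehicles pooled and -0.52 with untreated mice as control. Il7r was -0.06 under total count scaling, -0.0041 and -0.07 under limma without and with background subtraction, -0.23 with both vehicles pooled and -0.35 with untreated mice. Il15ra was 0.08 under limma after background subtraction, 0.32 with both vehicles pooled and 0.17 with untreated mice. At day 3 untreated mice as control gave -0.14 for Il2rg, 0.20 for Il4ra and -0.28 for Il15ra, both vehicles pooled gave -0.31 for Il15ra, and all 20 housekeeping probes gave 0.03 for Il4ra. At day 7 Il7r was -0.45 with untreated mice and Il15ra -0.18 under limma after background subtraction, and for the mean Il7r was -0.31 and Il15ra -0.01 with untreated mice. For vehicle-treated against untreated mice, limma after background subtraction gave 0.46 for Il2rg, 0.27 for Il15ra and 0.14 for Il21r. Il15ra was 0.08, 0.07 and 0.14 under TMM, total count and DESeq2 scaling, and Il4ra was -0.09 with all 20 housekeeping probes and -0.05 with the venetoclax vehicles only.

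Leaving out 1 mouse at a time, the values that changed sign ranged at day 1 of venetoclax from -0.21 to 0.003 for Il2rb, -0.06 to 0.37 for Il2rg, -0.03 to 0.14 for Il7r and -0.34 to 0.24 for Il15ra. At day 3 they ranged from -0.06 to 0.29 for Il2rg, -0.23 to 0.15 for Il4ra and -0.16 to 0.56 for Il15ra. For the mean Il2rg ranged from -0.14 to 0.03, and for vehicle-treated against untreated mice Il4ra ranged from -0.05 to 0.35 and Il15ra from -0.35 to 0.29. Of 360 and 210 ruxolitinib values, 23 and 18 moved by more than 1 SE under an alternative or with a mouse left out. Over the alternatives, not counting fits with a mouse left out, the number of all genes called ran from 0 to 25, 0 to 2, 0 to 66 and 7 to 26 for days 1, 3 and 7 and the mean of venetoclax. It ran from 4 to 77, 0 to 10, 0 to 87 and 0 to 20 for ruxolitinib, and from 0 to 5 for vehicle-treated against untreated mice. Without untreated mouse 2 the number for vehicle-treated against untreated mice was 6. Total count scaling moved the median of all genes by -0.12 at day 1 of venetoclax and by 0.12 and -0.13 at days 1 and 7 of ruxolitinib, and in vehicle-treated against untreated mice TMM, all 20 housekeeping probes and DESeq2 moved it by 0.12, -0.16 and 0.18.

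Mice with the same number are different animals. Over 177 pairs of same-numbered mice of different groups, the correlation of their deviations across 354 genes had a median of 0.01 and ran from -0.45 to 0.59. With a replicate block Il2ra at day 7 of ruxolitinib was -1.89, the ruxolitinib mean of Il7r was -0.64, the venetoclax mean of Il21r was -0.80, and Il2rb at day 1 of venetoclax was 0.01. The number of members called was the same with the block in all 9 comparisons. Low counts limit Il15ra most, with 12 mice at background, and 2 lanes held fewer than 30000 counts. Il15ra had no value under the filter on a mean count of 10.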
